A study of Rattus norvegicus with 24 samples.

Results

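The genes of bone morphogenetic protein (BMP) and growth differentiation factor (GDF) signalling described here are the ligands Bmp2, Bmp4, Bmp6, Bmp7 and Gdf15, the receptors Bmpr1a and Bmpr2, the secreted antagonists Nbl1 and Grem1, and the target gene Id1. They were taken by symbol from the platform annotation, which gave 1 transcript cluster for each of the 10 genes out of 28894 clusters on the array. The rats were male Wistar animals, 6 on lithium and 6 controls, and cortex and medulla of the same 12 animals were hybridised to 24 Affymetrix arrays. Control rats ate a standard diet and drank tap water. Lithium-treated rats received 40 mmol lithium per kg of food over 7 days and then 60 mmol per kg, until 6 months, together with a salt block that the controls did not have, so that lithium and the salt block cannot be told apart. The question was how long-term lithium, which damages the collecting duct and leaves interstitial fibrosis, altered gene expression in each tissue.

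BMPs are secreted dimers of the TGF-beta superfamily that bind type I and type II serine/threonine kinase receptors. The receptors phosphorylate Smad1, Smad5 and Smad9, which enter the nucleus with Smad4 and switch on genes such as the Id family, while secreted antagonists such as gremlin and the DAN family protein Nbl1 bind the ligands and keep them from the receptors. In the kidney, Bmp7 is needed for nephron formation and has been studied as an opponent of TGF-beta driven fibrosis, and Grem1 is a BMP antagonist of development that reappears in diseased kidneys. Gdf15 is a distant relative of this family that is induced by cellular stress and acts through the receptor Gfral with Ret rather than through BMP receptors.

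Values are log2 signal intensities, and a difference of 1 is a doubling of signal. A cluster was tested in a tissue where it reached 6 on 4 or more of its 12 arrays, which 13766 clusters did in cortex and 16025 in medulla. The effect of scan date had been removed from the values before deposit. This removal left a trace that sorts the cortex arrays into 4 scan groups and the medulla arrays into 3, and limma was run with diet and scan group as factors. In cortex animal 17, on lithium, formed a scan group by itself, and its array differs from the lithium mean by at most 0.00008, so lithium-treated cortex has n = 5. The tissue labels were checked with 7 proximal tubule genes, whose mean ran from 10.91 to 11.18 in control cortex and from 7.63 to 8.72 in control medulla.

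Gdf15 and Nbl1 rose in the cortex of lithium-treated rats and were closely correlated over the cortex arrays, so the sequences at their transcription starts are shown. RefSeq held promoter entries for 8 of the 10 genes on build GRCr8, each 250 bases before to 50 after a start, with separate entries for 2 starts of Gdf15. The Gdf15 promoters lie at chr16:18838186-18838485 and chr16:18839015-18839314 on the plus strand and the Nbl1 promoter at chr5:156613133-156613432 on the minus strand. Capitals mark a match to a searched motif, TATAAA in the Gdf15 promoter at the second start and GGCGCC, a GC-rich Smad box, in that of Nbl1.
Gdf15, upstream start: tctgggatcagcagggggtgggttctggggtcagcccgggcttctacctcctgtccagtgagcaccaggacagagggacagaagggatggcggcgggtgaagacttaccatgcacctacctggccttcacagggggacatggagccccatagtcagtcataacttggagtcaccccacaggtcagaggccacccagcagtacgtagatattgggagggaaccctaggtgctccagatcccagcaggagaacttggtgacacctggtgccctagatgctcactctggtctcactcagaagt
Gdf15, downstream start: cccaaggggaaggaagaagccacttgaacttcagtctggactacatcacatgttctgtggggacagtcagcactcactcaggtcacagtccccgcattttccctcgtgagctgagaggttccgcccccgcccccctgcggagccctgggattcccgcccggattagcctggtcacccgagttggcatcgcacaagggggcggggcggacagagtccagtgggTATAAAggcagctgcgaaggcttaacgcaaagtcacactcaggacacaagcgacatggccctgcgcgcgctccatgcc
Nbl1: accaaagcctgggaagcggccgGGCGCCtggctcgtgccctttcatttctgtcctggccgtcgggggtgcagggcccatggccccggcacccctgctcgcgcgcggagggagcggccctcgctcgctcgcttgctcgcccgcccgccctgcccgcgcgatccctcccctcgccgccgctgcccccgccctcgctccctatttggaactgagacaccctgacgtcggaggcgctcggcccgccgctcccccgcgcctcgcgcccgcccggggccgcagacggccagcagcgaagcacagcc
TATAAA began at position -28 from the downstream Gdf15 start and was found on either strand in 4760 of the 33469 promoters of the table (14.2%). GGCGCC began at position -228 in the Nbl1 promoter and was found in 3688 of them. The Nbl1 promoter had a GC content of 76.7% and the Gdf15 promoters 58.7% and 61.3%, against a median of 51.7% over all promoters. None of these 3 sequences held the Smad palindrome GTCTAGAC (0.197% of all promoters), the cAMP response element TGACGTCA (1.83%), the AP-1 site TGANTCA (7.33%) or a p53 half-site (7.98%). GGCGCC was also found in the Grem1 promoter, at position -91, and TATAAA in those of Id1 (-59) and Bmpr1a (-233). The Bmpr1a promoter also held an AP-1 site (-204) and the Bmpr2 promoter a p53 half-site (-54).

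In the cortex, 2 of the 9 genes tested passed an adjusted p of 0.05, Gdf15 and Nbl1, both higher with lithium, against 0.574% of all clusters tested (0.465% higher). Gdf15 had log2 signal intensities of 6.48 at the lowest, 6.74 at the median and 7.16 at the highest of 6 control arrays, and of 7.43, 7.72, 7.71, 7.67 and 7.49 in lithium-treated animals 6, 18, 19, 21 and 22. Every lithium-treated array therefore lay above every control array. The control mean was 6.80 ± 0.263 (SD, n = 6) and the lithium mean 7.61 ± 0.137 (SD, n = 5), which is 1.75-fold or 0.81 on the log2 scale (standard error, SE, 0.137), with an adjusted p = 0.0262 from limma. Nbl1, which encodes a secreted antagonist first found as a suppressor of transformed growth, lay at 6.89, 7.36 and 7.62 (lowest, median and highest) in controls and at 7.90, 8.15, 8.11, 8.13 and 8.25 in the same lithium-treated animals. Here too the groups did not overlap, with lithium above control, as in 1.85% of all clusters tested in cortex. Its mean rose from 7.33 ± 0.255 (SD, n = 6) to 8.11 ± 0.128 (SD, n = 5), by 0.77 on the log2 scale (SE 0.133, 1.71-fold, adjusted p = 0.0270 from limma). Within the 3 scan groups that held both diets, Gdf15 was higher with lithium by 0.54, 1.03 and 0.76 and Nbl1 by 0.46, 0.82 and 0.94.
Both calls were close to the threshold. Without control animals 15 or 16 or lithium-treated animals 18, 21 or 22, neither passed. The adjusted p for Gdf15 was then 0.0966, 0.0883, 0.0768, 0.0864 and 0.0678, in that order, and it was 0.0657 without control animal 29. For Nbl1 it was 0.0949, 0.0957, 0.0768, 0.0870 and 0.114. The log2 fold changes without an array stayed between 0.72 and 0.91 for Gdf15 and between 0.65 and 0.88 for Nbl1. With scan group left out of the fit, the adjusted p was 0.00107 for Gdf15 and 0.00119 for Nbl1, and 2.09% of all clusters were called, but that fit counts 10 residual degrees of freedom where 7 remain. Beside these genes, the principal cell markers Aqp2 and Scnn1g fell, 2 of 4 on that list, and the list mean ran from 8.02 to 8.79 in control and from 7.19 to 7.87 in lithium-treated cortex. The part of this difference in the Gdf15 and Nbl1 values was not tested, and in whole tissue fewer cells of a type and less RNA per cell cannot be told apart.

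**Figure D1:**
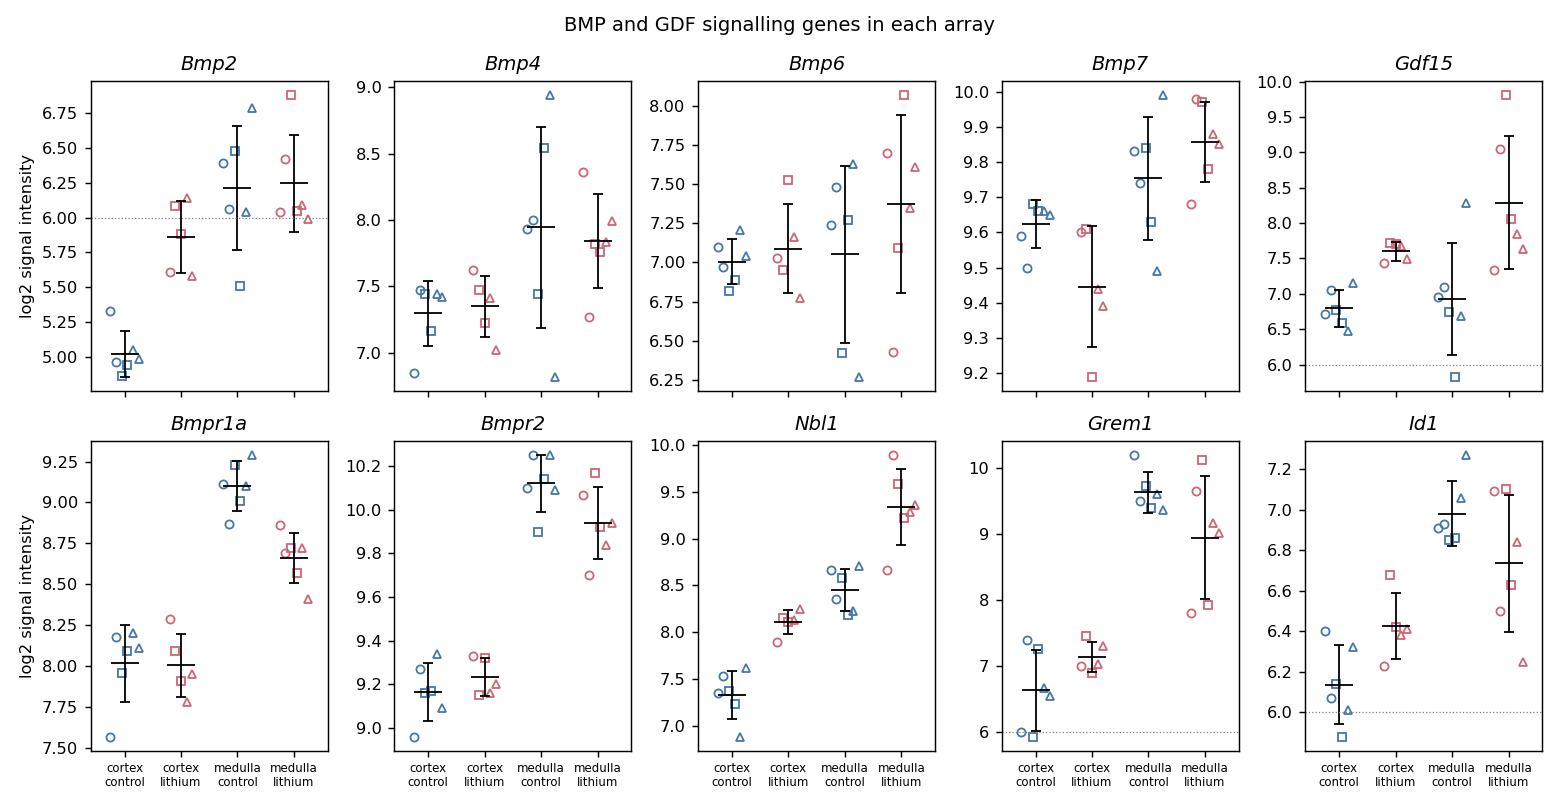
Log2 signal intensity (y axis, a separate scale for each gene) of the 10 genes in control (blue) and lithium-treated (red) cortex and medulla. Points are single arrays (6 a group, 5 in lithium-treated cortex), circles, squares and triangles are the recovered scan groups, bars are the mean and SD, and the dotted line is the filter value of 6. Gdf15, Nbl1 and Bmp2 show separate groups in cortex, and Bmpr1a in medulla.

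Among the ligands in cortex, Bmp2 had separate groups but a low signal. Bmp2, a ligand that drives bone and cartilage formation, lay at 4.86, 4.97 and 5.33 (lowest, median and highest) in control cortex and at 5.61, 6.08, 5.88, 6.14 and 5.58 in lithium-treated animals 6, 18, 19, 21 and 22. All lithium-treated arrays were above all controls, by 0.84 between the means of 5.02 ± 0.164 (SD, n = 6) and 5.86 ± 0.261 (SD, n = 5), but the gene reached 6 on 2 arrays only and was therefore not tested. Without the filter, over all 28894 clusters, of which 0.221% passed, its adjusted p from limma was 0.0343 (log2 fold change 0.84, SE 0.135). No measure of background was used, so a signal under 6 is not shown to be above it.
The other ligands differed less than the test could resolve. Bmp4, a ligand of kidney and ureter development, had means of 7.30 ± 0.246 and 7.35 ± 0.233, a log2 fold change of 0.05 (95% confidence interval -0.28 to 0.37, adjusted p = 0.956 from limma). Bmp6, known in the liver as the ligand that sets hepcidin by iron, had means of 7.00 ± 0.142 and 7.09 ± 0.285 (interval -0.22 to 0.38). The mean of Bmp7 was 9.62 ± 0.0686 in control and 9.44 ± 0.174 in lithium-treated cortex, with an interval of -0.39 to 0.04 and an adjusted p = 0.737 from limma.
Neither receptor was called in cortex. The type I receptor Bmpr1a had a control mean of 8.02 ± 0.237 and a log2 fold change of -0.02, with an interval of -0.32 to 0.29, and the type II receptor Bmpr2 means of 9.17 ± 0.133 and 9.23 ± 0.0865, with an interval of -0.14 to 0.27. The antagonist Grem1 varied most between control arrays, from 5.93 to 7.39, where the lithium-treated arrays ran from 6.89 to 7.45 inside a narrower band. Its log2 fold change was 0.50 (SE 0.271, adjusted p = 0.721 from limma). Id1, an inhibitor of basic helix-loop-helix factors and a target gene of the Smads that BMP receptors phosphorylate, had means of 6.14 ± 0.198 and 6.42 ± 0.164. Its log2 fold change of 0.29 (SE 0.122) had an unadjusted p = 0.0378 and an adjusted p = 0.624 from limma. Over the 9 genes the median log2 fold change was 0.08, beside 0.01 over all clusters tested.

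**Figure D2:**
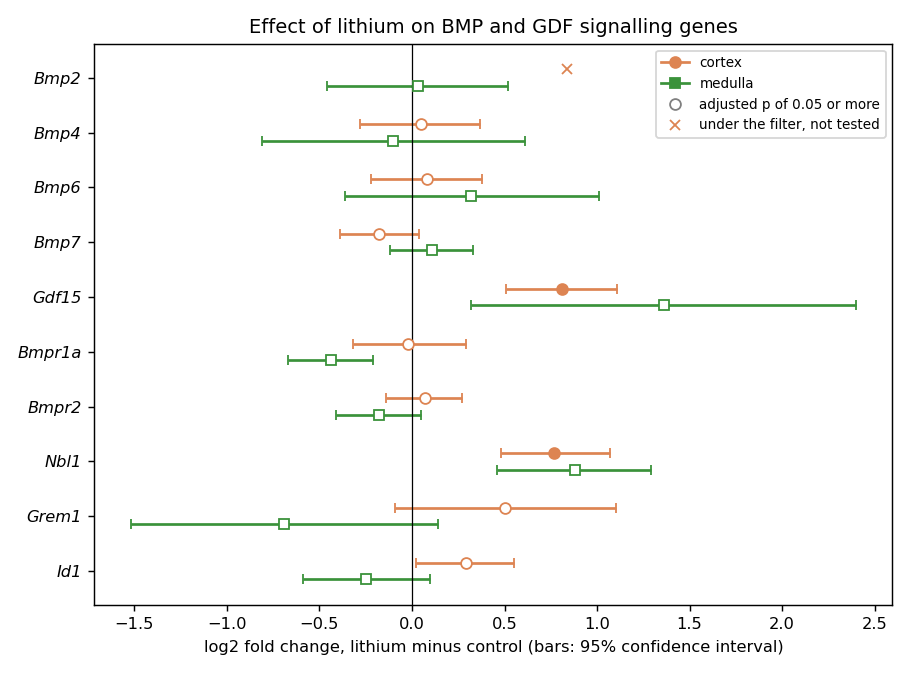
Lithium effect as a log2 fold change (x axis) for each gene in cortex (orange circles) and medulla (green squares), with 95% confidence intervals from limma. Filled points passed an adjusted p of 0.05, which Gdf15 (0.81) and Nbl1 (0.77) did in cortex, and the cross is Bmp2 in cortex (0.84), which was under the filter.

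In the medulla none of the 10 genes passed an adjusted p of 0.05 from limma, where 1.19% of all clusters did, and 3 had an unadjusted p under 0.05, namely Nbl1, Bmpr1a and Gdf15. Nbl1 lay at 8.19, 8.47 and 8.71 (lowest, median and highest) in controls and at 8.67, 9.32 and 9.89 in lithium-treated rats. The groups overlapped through lithium-treated animal 6, whose 8.67 was just below the highest control, and the other 5 lithium-treated arrays were at 9.22 or above. The means were 8.46 ± 0.223 and 9.33 ± 0.409 (SD, n = 6 each), 0.88 apart on the log2 scale (SE 0.190, 1.84-fold), with an adjusted p = 0.0517 from limma.
Bmpr1a had values of 8.87, 9.11 and 9.29 in controls and of 8.41, 8.70 and 8.86 in lithium-treated rats (lowest, median and highest). It was the only gene of the 10 whose medulla groups did not overlap, with lithium below control, as in 1.60% of all clusters tested there, with animal 6 again the lithium-treated array nearest to the controls. Its log2 fold change was -0.44 (SE 0.106, 95% confidence interval -0.67 to -0.21), with an adjusted p = 0.0705 from limma. Within the 3 scan groups the difference was -0.21, -0.48 and -0.63 for Bmpr1a and 0.77, 1.01 and 0.85 for Nbl1. Without lithium-treated animal 6, both were called, Nbl1 at 1.04 with an adjusted p = 0.00544 and Bmpr1a at -0.49 with an adjusted p = 0.0284, and so were 6.57% of all clusters, up from 1.19%. With scan group left out, where 6.56% of all clusters were called, the adjusted p was 0.0148 for Nbl1 and 0.0184 for Bmpr1a.
Gdf15 was the most variable of the 10 genes in this tissue. Control medulla ran from 5.83 over a median of 6.85 to 8.28, and lithium-treated medulla from 7.34 over 7.95 to 9.81. The lowest control was animal 16 and the highest animal 30, which lay above 4 of the 6 lithium-treated arrays. The log2 fold change was 1.36 (SE 0.475, 2.57-fold, 95% confidence interval 0.32 to 2.40), an adjusted p = 0.153 from limma, and the difference within scan groups ran from 0.26 to 2.65.
Beside these values the medulla markers moved as well, where 0.830% of all clusters tested were called higher and 1.19% in either direction. Of 5 macrophage markers, 4 were tested and Cd68 and C1qa rose, and the list mean ran from 6.17 to 7.21 in controls and from 7.23 to 7.69 with lithium. Of 4 intercalated cell markers Slc4a9 rose, with a list mean of 6.45 to 9.35 and of 9.42 to 10.55. Of 3 endothelial markers on the array Emcn fell (-0.91), with a list mean of 8.65 to 9.14 and of 8.20 to 8.68. On the same list Tek (-0.60) and Cdh5 (0.12) were not called. The T cell marker Cd3e, the only gene of 3 on its list that could be tested, rose by 0.68 (adjusted p = 0.0411 from limma). Every control array of Cd3e was under 6, so only lithium-treated arrays brought it past the filter. Its control signal is therefore not shown to be above background. The podocyte and endothelial marker Podxl fell by 1.01 (adjusted p = 0.0344 from limma), 1 of 3 tested on its list. The others of that list, Synpo (0.31, adjusted p = 0.105 from limma) and Nphs1 (0.03), were not called and did not fall. Every lithium-treated array of Synpo lay above every control array, as in 2.12% of all clusters tested there. None of 7 proximal tubule or 3 inner medulla markers passed, although 5 and 2 had an unadjusted p under 0.05. The proximal tubule list mean ran from 7.63 to 8.72 in controls and from 6.92 to 7.87 with lithium, and that of the inner medulla list from 9.84 to 11.68 and from 9.23 to 10.29. The part of all these markers in the Nbl1, Bmpr1a and Gdf15 values was not tested.

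**Figure D3:**
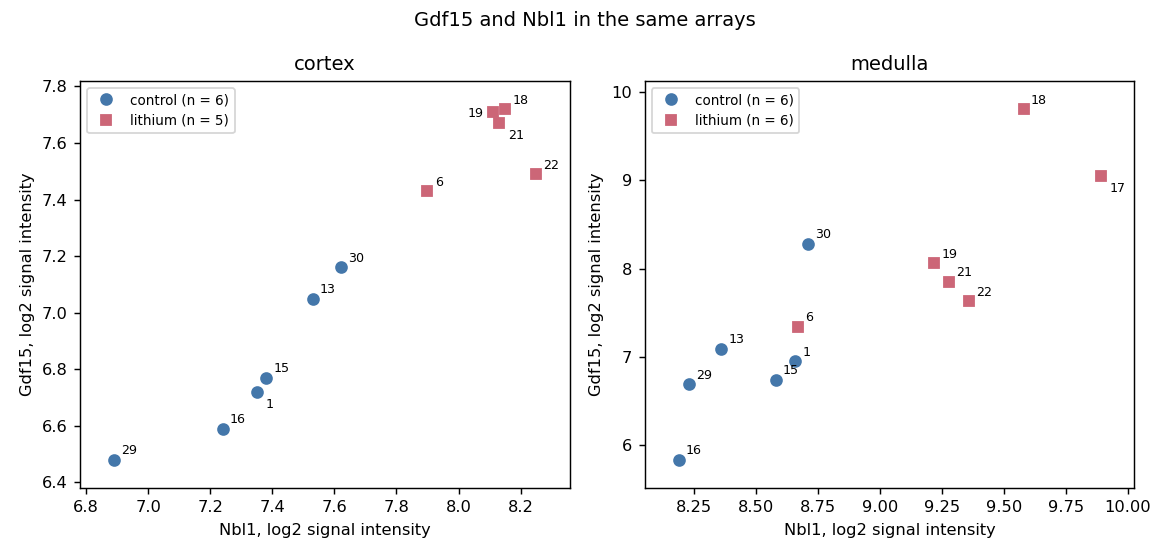
Log2 signal intensity of Nbl1 (x axis) and Gdf15 (y axis) in the same arrays of cortex (left) and medulla (right), in control (blue circles) and lithium-treated rats (red squares), with animal numbers. In cortex control animal 29 is lowest (6.89 and 6.48) and control animal 30 the highest control (7.62 and 7.16) for both genes. In medulla lithium-treated animal 6 lies among the controls.

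Gdf15 and Nbl1 had closely similar patterns over the 11 cortex arrays with values of their own, with a Pearson r of 0.968, which is given as a description since diet moves both genes and the arrays share their processing. Each was the gene most like the other among all named genes tested. The next genes in likeness to Gdf15 were St6galnac2 (r = 0.953) and the aryl hydrocarbon receptor Ahr (0.939), and those most like Nbl1 were Isyna1 (0.949) and the membrane metalloproteinase Mmp15 (0.946). The order of the control animals was also shared, since animal 30 was the highest and animal 29 the lowest control for both genes in cortex. In medulla animal 30 was again the highest control and animal 16 the lowest for both. The order of the lithium-treated cortex arrays was not fully shared. Animal 6 was lowest for both genes, but animal 22 was highest for Nbl1 (8.25) and next to lowest for Gdf15 (7.49).
The 4 BMP ligands in medulla overlapped between the diets. Bmp2 had means of 6.21 ± 0.445 and 6.24 ± 0.347 (interval of the difference -0.46 to 0.52), and Bmp4 of 7.94 ± 0.756 and 7.84 ± 0.353 (interval -0.81 to 0.61). Bmp6 had means of 7.05 ± 0.569 and 7.38 ± 0.569 (interval -0.36 to 1.01) and Bmp7 of 9.75 ± 0.174 and 9.86 ± 0.115 (interval -0.12 to 0.33). The intervals of Bmp4 and Bmp6 are wide, as control arrays alone ran from 6.82 to 8.94 for Bmp4 and from 6.27 to 7.63 for Bmp6. Bmpr2 had a log2 fold change of -0.18 (SE 0.106, adjusted p = 0.357 from limma). Grem1 ran from 9.37 over 9.56 to 10.20 in control and from 7.80 over 9.09 to 10.13 in lithium-treated medulla. Lithium-treated animals 6 and 19 were at 7.80 and 7.92, far under every control, and animal 18 was above most of them, so that the log2 fold change of -0.69 (SE 0.379) had an adjusted p = 0.336 from limma. Id1 had means of 6.98 ± 0.163 and 6.73 ± 0.337, a log2 fold change of -0.25 (SE 0.158, adjusted p = 0.409 from limma). The median over the 10 genes was -0.04, beside -0.01 over all clusters tested.

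The lithium effect was then compared between tissues as an interaction over all 24 arrays. None of the 9 genes that could be tested differed at an adjusted p of 0.05 from limma, as did 0.0821% of the 13403 clusters kept in both tissues, and 3 genes had an unadjusted p under 0.05. They were Id1, Bmpr1a and Grem1, each with a more negative effect in medulla. Id1 and Grem1 had opposite signs, positive in cortex and negative in medulla, and the medulla effect minus the cortex effect was -0.53 for Id1 (SE 0.208, unadjusted p = 0.0193, adjusted p = 0.325 from limma) and -1.19 for Grem1 (SE 0.511, unadjusted p = 0.0309, adjusted p = 0.363 from limma). Single animals moved the Grem1 effect in both tissues and the Id1 effect in medulla by over 1.5 times without turning their sign. Without single animals Grem1 ran from 0.30 (without control animal 15) to 0.68 in cortex and from -0.98 to -0.40 (without lithium-treated animal 6) in medulla, where it was -0.43 without animal 19. Id1 ran from 0.21 to 0.39 in cortex and from -0.34 to -0.12 (without lithium-treated animal 22) in medulla. For Bmpr1a the difference was -0.42 (SE 0.176, unadjusted p = 0.0261, adjusted p = 0.350 from limma). For Nbl1 it was 0.10, with an interval of -0.41 to 0.62, and for Gdf15 0.55, with an interval of -0.60 to 1.71, so a larger Gdf15 effect in medulla was not resolved.
In control rats, 5 of the 9 genes kept in both tissues had every medulla array above every cortex array. The differences of the means were 3.00 for Grem1, 1.12 for Nbl1, 1.08 for Bmpr1a, 0.96 for Bmpr2 and 0.84 for Id1. Bmp4, Bmp7, Gdf15 and Bmp6 overlapped, at 0.64, 0.13, 0.13 and 0.05. These values are a description, since 52.1% of all clusters kept in both tissues were above in this sense and 5.02% were below. The mean array medians of the tissues, over the arrays of both diets, also lay 0.38 apart. Bmp2 was also higher in every control medulla array, but its control cortex signal was under 6 and no difference is given. Of the 9 genes Grem1 had the largest difference between tissues, by control level and by the estimate of the lithium effect, which was not called (-1.19, SE 0.511).

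The other genes of the pathway were read by role. Of 12 other BMP and GDF ligands on the array 2 were tested in each tissue, and Bmp3, a ligand that opposes BMP signalling in bone, rose in medulla. Its values were 7.61, 8.11 and 8.23 in control and 8.66, 9.25 and 10.15 in lithium-treated medulla (lowest, median and highest), with no overlap, as in 2.12% of all clusters higher with lithium there. The log2 fold change was 1.29 (SE 0.230, 2.44-fold, adjusted p = 0.0255 from limma, where 0.830% of all clusters were called higher). In cortex it was 0.89 (SE 0.235, adjusted p = 0.234 from limma), from a control mean of 5.98, and without scan group in the fit its adjusted p was 0.0327. The medulla call was lost without control animals 1, 13, 15 or 16 (adjusted p = 0.0536, 0.0542, 0.0687 and 0.0651) or lithium-treated animals 18, 19 or 21 (0.0592, 0.0776 and 0.0789).
No other receptor, of 7 tested in cortex and 8 in medulla, passed in either direction, nor did a Smad or Smad regulator, of 7 and 8, or another BMP target gene, of 5 and 5, from limma, with scan group in the fit or without it. In each of these lists and tissues 1 gene had an unadjusted p under 0.05. The target Id3 had a log2 fold change of 0.40 in cortex (adjusted p = 0.607 from limma) and of 0.02 in medulla, and the inhibitory Smad7 of -0.29 (adjusted p = 0.510) and -0.04. Of the other antagonists and modulators none passed, of 6 in cortex and 9 in medulla, where 1 and 2 had an unadjusted p under 0.05 and 2 passed in medulla without scan group. Chrdl1, a chordin-like BMP antagonist, and Twsg1, which modulates chordin, had medulla arrays that did not overlap, with lithium below control. This held for 1.60% of all clusters tested there. Their log2 fold changes were -1.11 (SE 0.247, adjusted p = 0.0551 from limma) and -0.59 (SE 0.147, adjusted p = 0.0751). Chrdl1 reached 6 on 7 medulla arrays, with every control at 6.22 or above and a lithium-treated median of 5.89 (highest 6.12). It therefore passed the filter through its control arrays, and its lithium-treated signal is not shown to be above background. Sostdc1, a BMP antagonist of distal tubules, had log2 fold changes of -0.39 in cortex and 0.41 in medulla, with adjusted p = 0.656 and 0.337 from limma. These 5 genes were chosen after their values were seen.
Because Gdf15 is a stress-induced gene, 10 stress and p53 response genes on the array were read beside it. Of 7 tested in cortex and 9 in medulla, 1 rose in each tissue, the cell cycle inhibitor Cdkn1a (p21), and none fell. Of all clusters tested, 0.465% were called higher in cortex and 0.830% in medulla. Cdkn1a had a log2 fold change of 1.13 in cortex (SE 0.125, 2.19-fold, adjusted p = 0.00165 from limma) and of 1.96 in medulla (SE 0.240, 3.88-fold, adjusted p = 0.00469). The diets did not overlap in either tissue, with lithium above control, as in 1.85% of all clusters tested in cortex and 2.12% in medulla. The median over the list was 0.20 in cortex and 0.04 in medulla, beside 0.01 and -0.01 over all clusters tested.

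**Figure D4:**
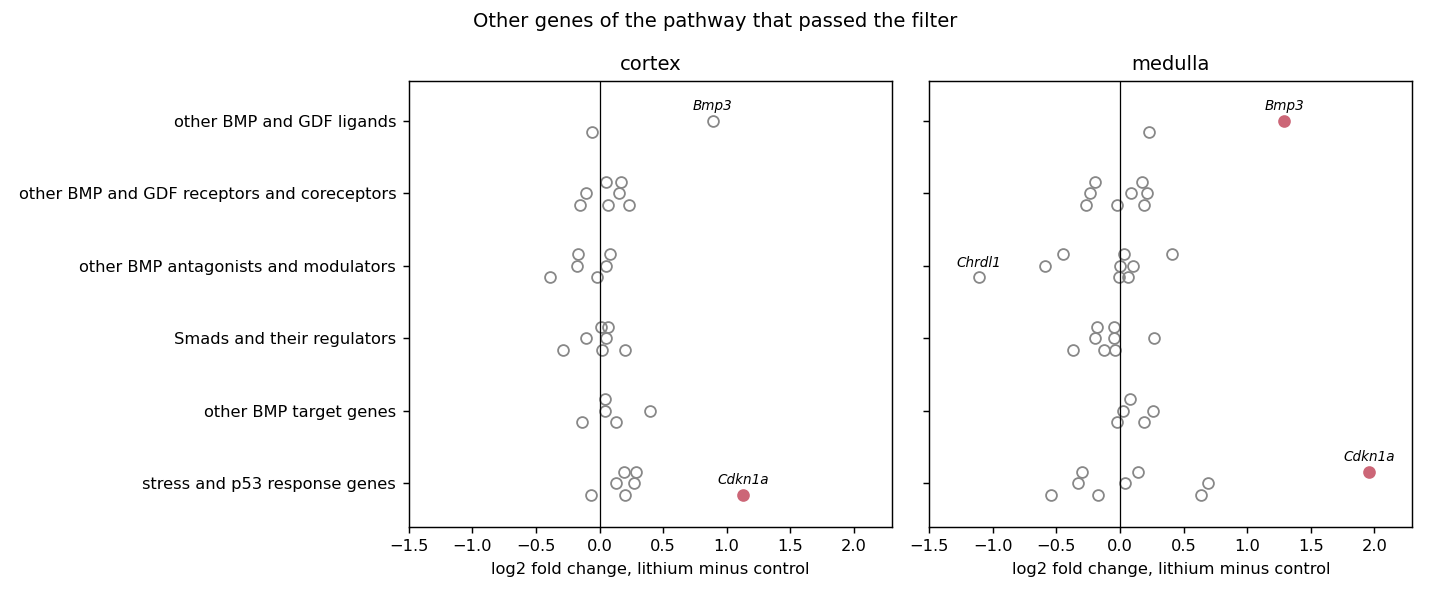
Lithium effect as a log2 fold change (x axis) for the genes of 6 lists (y axis) that passed the filter, in cortex (left) and medulla (right), with 1 point per gene. Red points passed an adjusted p of 0.05, Bmp3 (1.29) in medulla and Cdkn1a (1.13 in cortex and 1.96 in medulla), and grey circles did not.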

How the data were processed

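Values of 28894 transcript clusters on 24 arrays were deposited on the log2 scale. The authors had used Partek for RMA (background correction, quantile normalization, median polish), had taken out scan date by analysis of variance and had averaged exon probe sets to transcripts. RMA, Partek and rn4 appear in the submitters' processing notes. Arrays give no read depth, so their number limits the precision. The 10 genes and all lists were chosen with earlier results of these data known.

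The scan dates were not given in the sources, so scan groups were recovered from combinations of arrays without residual variance. The recovery was tested on simulated data, where it found the groups as they had been made, and could not be compared with the dates. In medulla they hold animals 1, 6, 13 and 17, animals 15, 16, 18 and 19, and animals 21, 22, 29 and 30, and in cortex the same with animal 17 alone. The platform annotation gave 1 gene symbol for 15097 clusters, more than 1 for 323 and no symbol for 13474, and 15067 were matched by identifier with no symbol changed. Clusters with at least 6 on at least 4 of 12 arrays of a tissue were compared by lmFit and eBayes of limma 3.58.1 under R 4.3.3, with diet and scan group as factors and Benjamini-Hochberg adjustment over all clusters kept. Residual degrees of freedom were 7 in cortex and 8 in medulla.

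The text names all 10 genes, pathway list genes past the threshold (up to 4 a list), the called marker genes beside the results they moved with and, for called genes, the 3 genes with the highest Pearson r. It also names pathway genes that were not called, chosen after their values were seen, and the uncalled markers of the endothelial and podocyte lists. Cortex and medulla of an animal carry its number in the labels, and over the 11 animals with values of their own in both tissues the correlation of their deviations ran from -0.087 to 0.438, so the animal was a block in an alternative fit. Alternatives varied scan group, filter, centring, normalization, moderation, the test and the arrays left out. Figures were drawn with matplotlib 3.10.9.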

Additional observations from a re-analysis of the deposited data

How the results depend on the processing

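Of 561 values of the 10 genes under an alternative, 512 kept their direction and side of the threshold, 14 lost a call, 12 gained one and 23 changed sign, all of the last uncalled. The values kept include those of the cortex fit without animal 17. That fit repeats the main one, as this array formed its own scan group, so its values could not change. In cortex, called genes numbered 2, but 3 without the filter (Bmp2 added, adjusted p = 0.0343). After repeated quantile normalization 1 was left, Gdf15 (adjusted p = 0.0448 from limma), and Nbl1 was lost (0.0579). Called genes numbered 0 by the methods' test after Benjamini-Hochberg adjustment (Gdf15 and Nbl1 both 0.186) and 0 to 2 without single animals. Called clusters numbered 79, or 288 without scan group, 143 by the methods' test at unadjusted p and fold change, 14 after adjustment, 163 and 296 by the methods' t-test, and 34 to 92 without single animals. In medulla, called genes numbered 0, or 2 without scan group (Nbl1 and Bmpr1a), 1 after repeated quantile normalization (Nbl1, 0.0491), 2 by the methods' test and 2 by the methods' t-test at unadjusted p and fold change (Gdf15 and Nbl1), 2 by that test after adjustment, and 0 to 2 without single animals. Called clusters numbered 190, or 1052, 558, 37, 651 and 650 under the same settings, and 50 to 1053 without single animals. The tissue difference called 11 clusters, or 3 with the animal as replicate block, 274 without scan group, 7 with arrays centred on their medians and 3 to 34 without single animals, and none of the 10 genes under any of them. The block turned Nbl1 from 0.10 to -0.04 and changed no call of these genes. Bmp2 in medulla (0.03) became -0.02 with centred arrays and -0.01 after repeated quantile normalization. Without single animals, signs turned within -0.09 to 0.14 for Bmp4, -0.04 to 0.17 for Bmp6 and -0.16 to 0.05 for Bmpr1a in cortex, -0.15 to 0.17 for Bmp2 and -0.39 to 0.14 for Bmp4 in medulla, and -0.47 to 0.05 for Bmp4 and -0.04 to 0.17 for Nbl1 in the tissue difference. Bmp3 in medulla and Cdkn1a in cortex lost their calls by the methods' test after adjustment (0.104 and 0.0541). Averaging several clusters of a gene was not run, as each gene had 1. Leaving out an array does not undo its part in the earlier removal of scan date. The cause of these changes was not tested.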
